A study of Mus musculus with 2 samples.

Results

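The genes described here are 10 well-known transcriptional targets of cyclic AMP (cAMP): Nr4a1, Nr4a2, Nr4a3, Fos, Crem, Per1, Sik1, Pde4b, Pde4d and Pde10a. They were taken by symbol from the 26100 genes listed in both single-cell libraries. All 10 were found. They were followed because the medium of the reprogrammed cells contains forskolin, which activates adenylyl cyclase.

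Mouse fibroblasts were reprogrammed into induced myogenic progenitor cells (iMPCs), a culture that holds muscle stem cell-like, committed and differentiating cells side by side. The iMPC library came from cells made with the transcription factor MyoD and the F/R/C compounds (forskolin, RepSox and CHIR99021) and kept in medium with those compounds. The series' design text speaks of a stable iMPC clone. The other library came from mouse embryonic fibroblasts (MEFs) in fibroblast medium, and both carried the Tg:Pax7-nGFP/C57BL6;DBA2 genotype. Each condition was 1 library, so no difference below has a replicate check and none was tested. MyoD, the 3 compounds, the medium and the cell type differ together between the libraries, so the part of forskolin cannot be told apart from theirs.

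When cAMP rises, protein kinase A phosphorylates CREB, which binds the cAMP response element (CRE) in gene promoters and switches on a fast set of genes. Several of these genes damp the signal again: the phosphodiesterases degrade cAMP, the short ICER products of Crem repress CRE promoters, and Sik1 phosphorylates the CREB coactivators so that they leave the nucleus. In muscle, Sik1 is known as a CREB target that acts on class II histone deacetylases, and Nr4a receptors are known to respond to adrenergic signals.

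Cells were grouped by their counts of unique molecular identifiers (UMIs, 1 per captured mRNA molecule). The MEF group had 6043 cells with at most 20% mitochondrial UMIs. The iMPC group had 9349 cells, those of the 9540 barcodes with the most UMIs that met the same mitochondrial limit. Within it, the Pax7 set (2180 cells) had at least 1 Pax7 UMI and 0 of Myog. Pax7 marks muscle stem cells. The Myog set (1724 cells) had at least 5 Myog UMIs and at most 1 of Ckm, that is committed cells before full differentiation. The Ckm set (1037 cells) had at least 5 UMIs of Ckm, the muscle creatine kinase, and the Dcn set (553 cells) had at least 5 of Dcn, a proteoglycan of fibroblasts. The Dcn set shared 110 cells with the Pax7 set, 18 with the Myog set and 18 with the Ckm set. A further 4001 iMPC cells were in no set.

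Levels are given as CPM, the UMIs of a gene per 1000000 UMIs of the group. Summed muscle markers followed the set names, single markers did not always, and the Dcn set was mixed. The 10 satellite (muscle stem) cell markers summed to 742 CPM in the Pax7 set, 341 in the Myog set and 276 in the Ckm set. Of them, Vcam1 was higher in MEF (191 CPM) than in the Pax7 set (42.6). Itga7 was highest in the Ckm set (143 CPM), and Chodl and Calcr stayed below 1 CPM. The 5 committed myoblast markers summed to 267, 2360 and 2073 CPM, with Cdh15 at 172, 169 and 160. The summed level of 7 myocyte genes was 756 CPM in the Pax7 set, 11662 in the Myog set and 40208 in the Ckm set. Each of these lists holds the gene that selected its set (Pax7, Myog or Ckm), and Ckm was 409 CPM of the Ckm set sum. The 8 fibroblast markers summed to 6411 CPM in MEF, 5178 in the Dcn set and 1351 in the Pax7 set. Dcn, which selected the Dcn set, is among them, and the other 7 summed to 6143, 4015 and 1293 CPM. The Dcn set also held 3623 CPM of the myocyte genes, among them Mylpf at 1211 CPM, and 152 CPM of Myog. Scrublet marked 8.32% of its cells as doublets, 9.06% of the Ckm set, 8.24% of the Myog set and 1.88% of the Pax7 set. The 3 markers each of endothelium, immune cells and epithelium summed to at most 0.575 CPM in any group. The 4 smooth muscle markers, led by Acta2, summed to 9883 CPM in MEF and between 402 and 858 in the 4 sets. The 3 adipocyte markers summed to 19.4 CPM in the Dcn set and 4.52 in MEF, almost all of it Fabp4. The 3 neuron markers summed to 61.4 CPM in the Dcn set, 76.6 in the Pax7 set and 25.9 in MEF. The part of such cells in the values below was not tested. Adgre1 was at 0 in both libraries, Kdr at 0 in iMPC and Cdh1 at 0 in MEF.

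Median depth was 18929 UMIs per cell in MEF, 18729.5 in the Pax7 set, 23857.5 in the Myog set, 42148 in the Ckm set and 18064 in the Dcn set. Levels below carry exact 95% Poisson intervals in parentheses. Ratios are log2 unless given as a fold. Shares of cells with a UMI are at 5000 UMIs per cell, to which every cell was thinned, and 284 shallower MEF cells were left out. Intervals cover counting error only. The 3' counts do not separate transcript isoforms, such as ICER from full-length Crem.

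The promoters of several of these genes carry clusters of the short CRE motif, and the sequences below are shown because CRE letters are what the 3 Nr4a genes and Fos have in common. RefSeq promoters of build GRCm38.p6, from 250 bases upstream to the start of transcription, were found for 8 of the 10 genes (13 promoters). None of the promoters searched was of Sik1. Promoters on the chromosome that holds Crem were left out before the search, so Crem was not looked up. The full palindrome TGACGTCA was in 0 of the 13, against 1.55% of 32851 promoters in the table. The short motif TGACG, also part of the palindrome, was read on both strands (CGTCA on the other). It was in 7 of the 13 promoters, against 17.8% of all promoters. Of the 8 genes, 6 had it in at least 1 promoter, a count per gene that the share per promoter does not match. Nr4a1, Nr4a2 and Nr4a3 each had 4 copies, a number reached by 0.137% of all promoters. That count of 4 was set after the sequences were seen. Fos had 2 copies, and 3.90% of all promoters had 2 or more. Each Per1 promoter had 1, and 1 of 4 Pde4b promoters had 1. The promoters used as background were not matched to these for base composition. The Pde4d and Pde10a promoters had 0. The Per1 promoter shown, whose start lies in a GENCODE transcript, also had 1 E-box (CACGTG, the motif of the clock proteins), found in 6.02% of all promoters. Capitals mark TGACG or CGTCA, and each sequence runs 5′ to 3′ on the gene's strand. For Nr4a3 only the 98 bases upstream of annotated exons are shown, with 3 of its 4 copies, and the Per1 sequence likewise ends at an exon.
Nr4a1, chr15:101266596-101266845, plus strand: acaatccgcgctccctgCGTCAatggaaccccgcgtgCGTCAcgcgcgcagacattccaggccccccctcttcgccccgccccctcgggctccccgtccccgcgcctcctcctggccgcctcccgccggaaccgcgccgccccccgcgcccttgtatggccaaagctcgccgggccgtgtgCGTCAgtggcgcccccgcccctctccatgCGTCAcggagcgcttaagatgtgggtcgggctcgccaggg
Nr4a2, chr2:57124004-57124253, minus strand: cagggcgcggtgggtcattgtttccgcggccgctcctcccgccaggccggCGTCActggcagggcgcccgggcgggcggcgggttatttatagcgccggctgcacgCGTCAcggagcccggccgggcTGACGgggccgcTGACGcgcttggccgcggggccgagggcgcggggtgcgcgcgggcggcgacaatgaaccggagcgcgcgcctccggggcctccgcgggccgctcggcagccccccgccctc
Nr4a3, chr4:48045055-48045152, plus strand: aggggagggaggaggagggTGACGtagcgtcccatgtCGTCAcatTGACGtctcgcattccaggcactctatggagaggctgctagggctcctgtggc
Fos, chr12:85473640-85473889, plus strand: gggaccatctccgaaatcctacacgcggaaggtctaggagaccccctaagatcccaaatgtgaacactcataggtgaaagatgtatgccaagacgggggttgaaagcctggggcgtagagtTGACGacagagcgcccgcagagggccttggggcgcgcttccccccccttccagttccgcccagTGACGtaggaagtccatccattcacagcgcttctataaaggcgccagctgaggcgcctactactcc
Per1, chr11:69098699-69098947, plus strand: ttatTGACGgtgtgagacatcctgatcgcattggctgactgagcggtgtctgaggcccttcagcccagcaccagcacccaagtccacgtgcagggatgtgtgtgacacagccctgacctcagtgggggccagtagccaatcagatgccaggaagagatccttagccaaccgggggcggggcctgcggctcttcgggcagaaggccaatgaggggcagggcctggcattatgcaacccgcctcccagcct
These matches describe letters and not binding.

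Between the whole iMPC library and MEF, Sik1 differed most among the 10 genes and was higher in iMPC by 20.3-fold. Fos and Pde4b were also over 2-fold higher, Nr4a2 was 9.76-fold lower, and the other 6 lay within 2-fold. So 3 of 10 were at least 2-fold higher and 1 was lower. Among all 12878 genes that reached 1 CPM in the higher group, 17.9% were at least 2-fold higher in iMPC and 22.9% at least 2-fold lower. The median log2 ratio was 0.52 over the 10 genes and -0.16 over all genes. All 10 passed the 1 CPM limit in every comparison below.

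**Figure D1:**
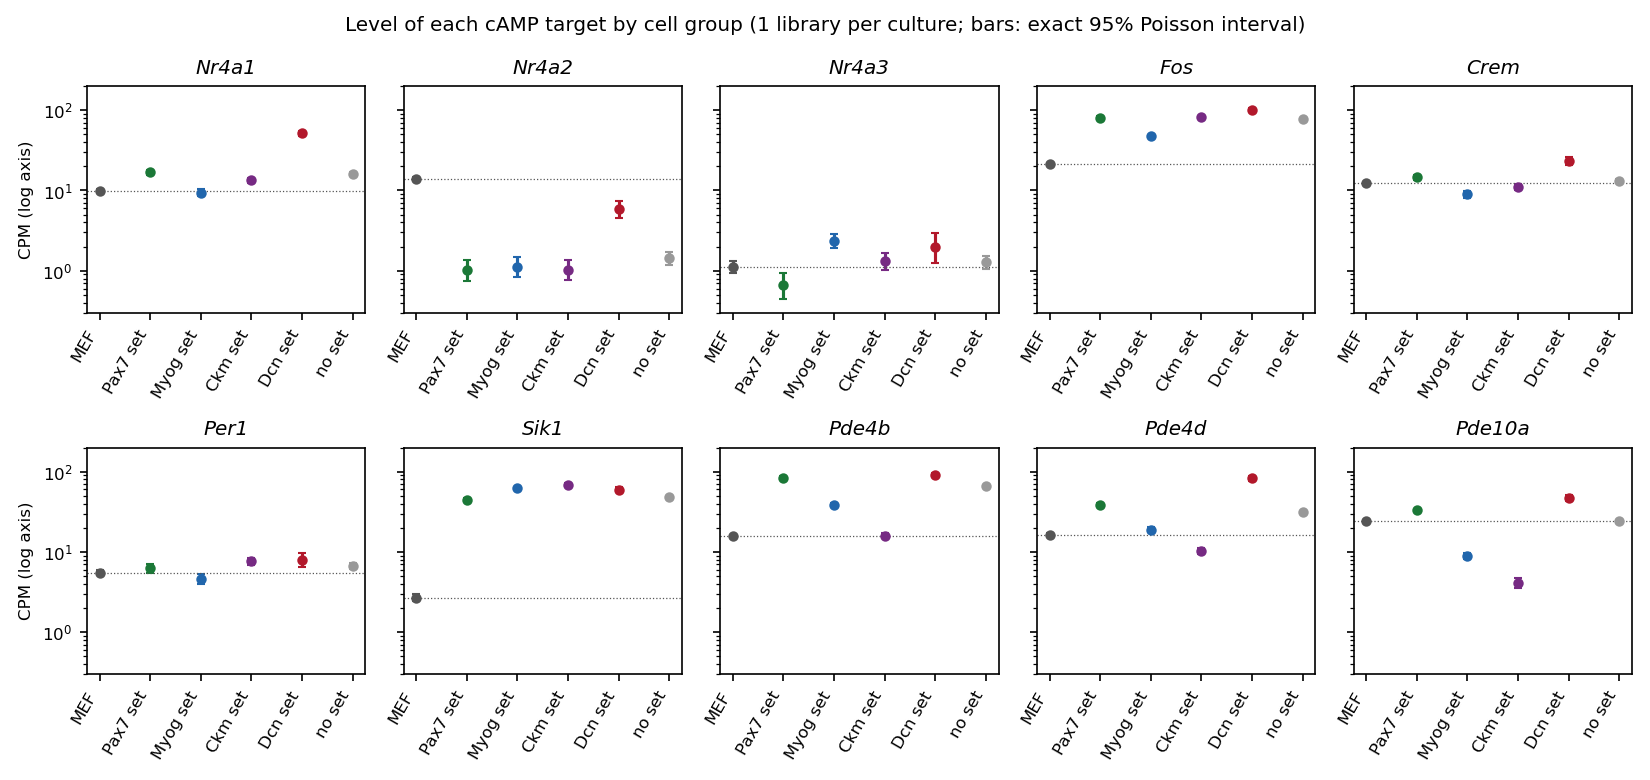
Level of each gene (CPM, log axis) in MEF, the 4 iMPC sets and the iMPC cells in no set. Points are summed UMIs of a group, bars exact 95% Poisson intervals, and the dotted line is the MEF level. Sik1 lay at 44.5 CPM or more in every iMPC group against 2.71 in MEF, while Nr4a2 lay below its MEF level in all of them.

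Fos (ENSMUSG00000021250, chr12:85473890-85477273), an AP-1 subunit and an immediate early gene, was higher in every iMPC set than in MEF. Its level was 21.3 CPM (20.4 to 22.1) in MEF, 81.03 in the Pax7 set, 47.8 in the Myog set, 82.8 in the Ckm set and 99.8 (94.3 to 106) in the Dcn set. The Pax7 and Ckm sets had overlapping intervals, and the Myog set was lowest of the 4. The log2 ratio to MEF ran from 1.17 in the Myog set to 2.23 in the Dcn set. A Fos UMI was present in 9.38% of MEF cells and in 29.3%, 17.3%, 26.7% and 27.3% of the Pax7, Myog, Ckm and Dcn sets. The largest count was 66 UMIs in a single Ckm set cell, and the top 1% of iMPC cells held 12.6% of its UMIs.

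Fos is also raised by cell dissociation, and the cells were trypsinised. Of 16 other dissociation-response genes, 6 were at least 2-fold higher in iMPC, 0 lower and 10 within 2-fold. The shares over all genes were the 17.9% and 22.9% given above. Their summed level was 2330 CPM in MEF, 2800 in the Pax7 set, 2485 in the Myog set, 2330 in the Ckm set and 3406 in the Dcn set, with none of the 16 at 0 in either library. The chaperone Hspa8 alone made up 1585 CPM of the MEF sum. The other 15 summed to 745 CPM in MEF, 1495 in the Pax7 set, 971 in the Myog set, 1047 in the Ckm set and 2522 in the Dcn set. Of the immediate early genes among them, Jun, Egr1, Egr2 and Atf3 had log2 ratios of iMPC to MEF of 2.53, 1.78, 5.32 and 5.82. Fos was at 1.81. The other immediate early genes were lower: Ier2 (1.11), Ier3 (0.99), Junb (0.91), Dusp1 (0.74) and Fosb (0.06). Jund (-0.31), Zfp36 (-0.36) and Btg2 (-0.89) were below their MEF level. The median mitochondrial share was 5.78% in MEF and 3.71% in iMPC. The part of either in the Fos values was not tested.

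The 3 Nr4a orphan nuclear receptors, which are immediate early factors without a known classical ligand, differed in direction. Nr4a1 (ENSMUSG00000023034, chr15:101254269-101274795) was at 9.77 CPM (9.22 to 10.3) in MEF, 16.8 in the Pax7 set, 9.42 in the Myog set, 13.3 in the Ckm set and 51.3 (47.4 to 55.5) in the Dcn set. The Dcn set stood apart, and the Myog set and MEF overlapped. Its log2 ratio to MEF was 2.39 (2.25 to 2.53) in the Dcn set and 0.69 (0.60 to 0.79) in iMPC as a whole. With every cell thinned to 5000 UMIs the latter was 1.02, just past 2-fold. In the Dcn set 17.5% of cells had an Nr4a1 UMI, against 3.91% in MEF.

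Nr4a2 (Nurr1, ENSMUSG00000026826, chr2:57106830-57124003) went the other way. It was at 13.8 CPM (13.2 to 14.5) in MEF, 1.02 in the Pax7 set, 1.13 in the Myog set, 1.03 in the Ckm set and 5.83 (4.56 to 7.36) in the Dcn set. The 3 muscle sets overlapped, and their log2 ratios to MEF were -3.76, -3.62 and -3.75, the last of them -4.42 with stricter sets. In the Dcn set the log2 ratio was -1.25 (-1.61 to -0.90), and it came within 2-fold when cells were thinned (-0.85), when cells in more than 1 set were left out (-0.90) or when the sets were stricter (-0.70). That set held only 71 Nr4a2 UMIs, of which 14 came from a single cell. A Nr4a2 UMI was seen in 5.56% of MEF cells and 0.738% of iMPC cells.

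Nr4a3 (Nor1, ENSMUSG00000028341, chr4:48045153-48086447) was scarce everywhere. It was at 1.11 CPM (0.928 to 1.32) in MEF, 0.659 in the Pax7 set, 2.36 (1.94 to 2.85) in the Myog set, 1.32 in the Ckm set and 1.97 in the Dcn set. The Myog set was 2.13-fold above MEF and 3.58-fold above the Pax7 set, where 29 UMIs were counted. With thinned cells the latter log2 ratio went from 1.84 to 3.21, and only 3 Pax7 set cells then had a UMI. The intervals of MEF and the Ckm and Dcn sets overlapped, and that of the Pax7 set (0.441 to 0.946) touched MEF. The direct log2 ratio to MEF was -0.75 (-1.39 to -0.16) in the Pax7 set and 0.83 (0.14 to 1.47) in the Dcn set. At most 1.22% of the cells of any set had a UMI at 5000 UMIs.

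Crem (ENSMUSG00000063889), whose ICER products repress CRE promoters, barely differed between the libraries. It was at 12.3 CPM (11.7 to 12.9) in MEF and 12.5 (12.1 to 13.0) in iMPC, a log2 ratio of 0.03 (-0.06 to 0.12). It was at 14.6 CPM in the Pax7 set, 8.92 in the Myog set, 11.04 in the Ckm set and 23.2 (20.6 to 26.1) in the Dcn set. The Ckm set overlapped MEF. The Dcn set was highest, with a log2 ratio to MEF of 0.92 that passed 2-fold with doublets removed (1.10), with median scaling (1.03) or with stricter sets (1.16). The small log2 ratio of the Ckm set to MEF, -0.15 (-0.30 to -0.01), changed sign with median scaling (0.15).

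Per1 (ENSMUSG00000020893, chr11:69095217-69109960), a repressor of the circadian clock that light and cAMP induce, stayed within 2-fold of MEF in all 4 sets. It was at 5.55 CPM (5.13 to 5.99) in MEF, 6.25 in the Pax7 set, 4.63 in the Myog set, 7.63 in the Ckm set and 8.05 (6.54 to 9.81) in the Dcn set. MEF overlapped the Pax7 and Myog sets, and the Ckm and Dcn sets overlapped. The direct log2 ratio of the Myog set to MEF was -0.26 (-0.49 to -0.04). Of 10 other clock genes, 1 was at least 2-fold higher in iMPC (Per2, log2 ratio 1.28) and 1 lower (Arntl, the Bmal1 activator, -1.65).

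Sik1 (ENSMUSG00000024042, chr17:31844250-31855804), the salt-inducible kinase, separated the libraries most clearly. It was at 2.71 CPM (2.42 to 3.02) in MEF, 44.5 (42.6 to 46.5) in the Pax7 set, 62.7 in the Myog set, 69.06 in the Ckm set and 59.6 (55.4 to 64.1) in the Dcn set. No iMPC set came near the MEF interval, and the Dcn and Myog sets overlapped. The log2 ratio was 4.34 (4.18 to 4.51) for iMPC over MEF and 4.04, 4.53, 4.67 and 4.46 for the Pax7, Myog, Ckm and Dcn sets. Among all genes, 95.4% had a lower ratio of iMPC to MEF. A Sik1 UMI was present in 1.30% of MEF cells and 21.7% of iMPC cells after thinning, and in 4.96% and 60.9% before it. Free RNA at its estimated 2.06% of a cell's UMIs would give a Sik1 UMI in 0.475% of iMPC cells. The top 1% of iMPC cells held 7.10% of its UMIs. The related kinases did not follow it: Sik3 was lower in iMPC, at a log2 ratio of -1.40, and Sik2 was at -0.11. Of the class II deacetylases that SIK kinases phosphorylate, Hdac5 (-1.04) and Hdac7 (-1.06) were lower and Hdac4 was within 2-fold. Hdac9 was higher (3.25) but scarce, at 2.82 CPM in iMPC and 0.296 in MEF, where 35 UMIs were counted.

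The 3 phosphodiesterases that degrade cAMP shared a pattern inside the iMPC culture. Each was highest in the Dcn set, next in the Pax7 set, then in the Myog set and lowest in the Ckm set. Pde4b (ENSMUSG00000028525, chr4:102087543-102607259) was at 15.8 CPM (15.1 to 16.5) in MEF, 84.6 in the Pax7 set, 38.4 in the Myog set, 15.8 in the Ckm set and 89.9 in the Dcn set. The Pax7 and Dcn sets overlapped at the top and the Ckm set overlapped MEF. The log2 ratio to MEF was 2.42 in the Pax7 set, 1.28 in the Myog set and 0.01 (-0.12 to 0.13) in the Ckm set. A Pde4b UMI was present in 33.1% of Pax7 set cells, 6.36% of Ckm set cells and 6.88% of MEF cells.

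Pde4d (ENSMUSG00000021699, chr13:108449948-109953461) was at 16.3 CPM in MEF (15.6 to 17.04), 38.3 in the Pax7 set, 18.9 in the Myog set, 10.3 in the Ckm set and 82.6 (77.6 to 87.9) in the Dcn set. The groups did not overlap. It was 5.07-fold above MEF in the Dcn set and 2.35-fold in the Pax7 set.

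Pde10a (ENSMUSG00000023868, chr17:8525372-8986648), which degrades both cAMP and cGMP, was at 24.1 CPM (23.2 to 25.02) in MEF, 33.0 in the Pax7 set, 8.94 in the Myog set, 4.11 (3.56 to 4.72) in the Ckm set and 46.7 in the Dcn set. Both differentiating sets lay below MEF. The log2 ratios to MEF were -1.43 in the Myog set and -2.55 in the Ckm set, against 0.95 in the Dcn set. The latter crossed 2-fold under 6 of its alternatives, up to 1.27 with thinned cells.

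**Figure D2:**
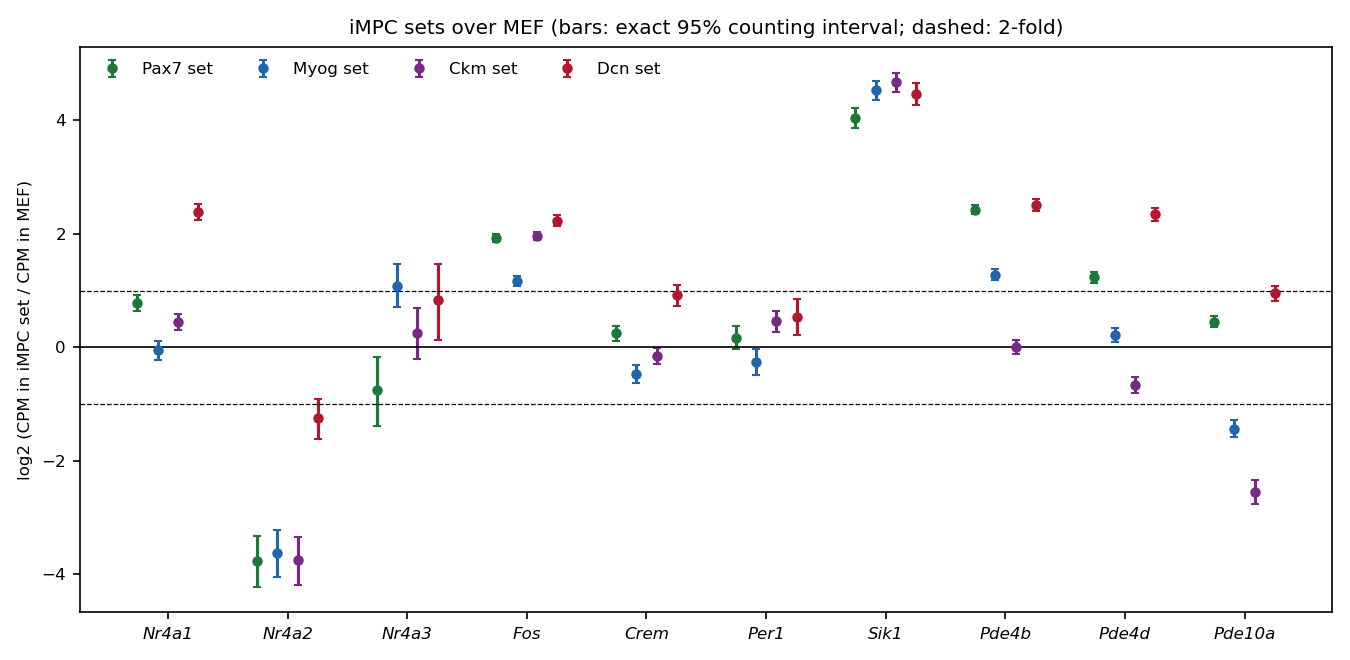
Log2 ratio of CPM in each iMPC set to CPM in MEF for the 10 genes, with exact 95% counting intervals as bars and dashed lines at 2-fold. Sik1 was between 4.04 and 4.67 in all 4 sets, while Pde10a spanned -2.55 to 0.95.

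Set by set, Fos and Sik1 were at least 2-fold above MEF in all 4 sets, and Nr4a2 was as far below it. In the Pax7 set 4 of 10 were higher (Fos, Sik1, Pde4b, Pde4d) and 1 lower, with 18.2% and 21.1% of all genes so. In the Myog set 4 were higher and 2 lower (Nr4a2, Pde10a), with 17.8% and 29.1% of all genes. In the Ckm set 2 were higher and 2 lower, with 15.4% and 38.2% of all genes. In the Dcn set 5 were higher (Nr4a1, Fos, Sik1, Pde4b, Pde4d) and 1 lower, with 17.6% and 14.8% of all genes. These comparisons share the MEF cells. The median log2 ratio of the 10 was 0.62, 0.08, 0.13 and 1.59 in the Pax7, Myog, Ckm and Dcn sets, against -0.07, -0.24, -0.60 and -0.07 over all genes. Scaling by the median of gene ratios would raise log2 ratios to MEF by 0.14 for iMPC, 0.07, 0.10, 0.30 and 0.11 for the 4 sets.

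Within the iMPC culture the phosphodiesterases were lower in the differentiating sets while Sik1 was slightly higher. In the Myog set, 3 of 10 were at least 2-fold below the Pax7 set (Pde4b, Pde4d, Pde10a) and 1 above it (Nr4a3). The background was 15.8% lower and 8.01% higher. Pde4d was at the limit, at a log2 ratio of -1.02, and was within 2-fold under 5 alternatives. In the Ckm set the same 3 phosphodiesterases were lower, with log2 ratios of -2.42 for Pde4b, -1.903 for Pde4d and -3.004 for Pde10a. None of the 10 was 2-fold higher, though Nr4a3 came close at 0.998 (0.34 to 1.68). Of all genes 34.7% were lower and 12.9% higher in this comparison. With median scaling, a step that shifts log2 ratios up by 0.29 there, these shares were 27.2% and 16.3%. The count of 3 of 10 lower was thus close to the share of all genes. Of all genes, 10.97% had a lower ratio of the Ckm set to the Pax7 set than Pde4b, 16.6% than Pde4d and 6.54% than Pde10a. Sik1 was above the Pax7 set by 0.49 in the Myog set and 0.63 in the Ckm set, both within 2-fold.

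In the Dcn set, 4 of 10 were at least 2-fold above the Pax7 set and 0 below it, with 14.4% and 7.66% of all genes so. They were Nr4a2 (log2 ratio 2.51), Nr4a1 (1.61), Nr4a3 (1.58) and Pde4d (1.11). Nr4a3 rests on 24 and 29 UMIs in these sets and was at 2.39 with thinned cells. Fos, Crem, Per1, Sik1 and Pde10a were above by 0.30 to 0.67, and Pde4b was at 0.09 (-0.01 to 0.19). These sets share 110 cells, so their counts are not independent, and the interval does not allow for it.

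Splitting the sets further showed where each level was highest. Cells were called cycling with at least 1 Mki67 or 2 Top2a UMIs, a call that deeper cells meet more easily. Among Pax7 set cells in no other set, Nr4a1 was at 22.8 CPM in those not cycling and 10.9 in those cycling, whereas it was 9.79 and 9.66 in MEF. Pde4b ran the other way in the Myog set, at 23.8 CPM in cells not cycling and 53.5 in cycling ones. Pde10a did the same there, at 5.75 and 11.7 CPM. Nr4a3 was highest in Myog set cells that were not cycling, at 3.42 CPM. The 68 cells with at least 50 Ckm UMIs had the highest Fos level of all 10 groups, 146 CPM, and the highest Per1 level, 11.8 CPM. Dcn set cells without a Pax7 UMI held the highest Nr4a1 (58.8 CPM), Crem (24.7), Pde4b (99.5), Pde4d (93.1) and Pde10a (48.2). MEF cells kept the highest Nr4a2 whether cycling (14.4 CPM) or not (13.7).

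**Figure D3:**
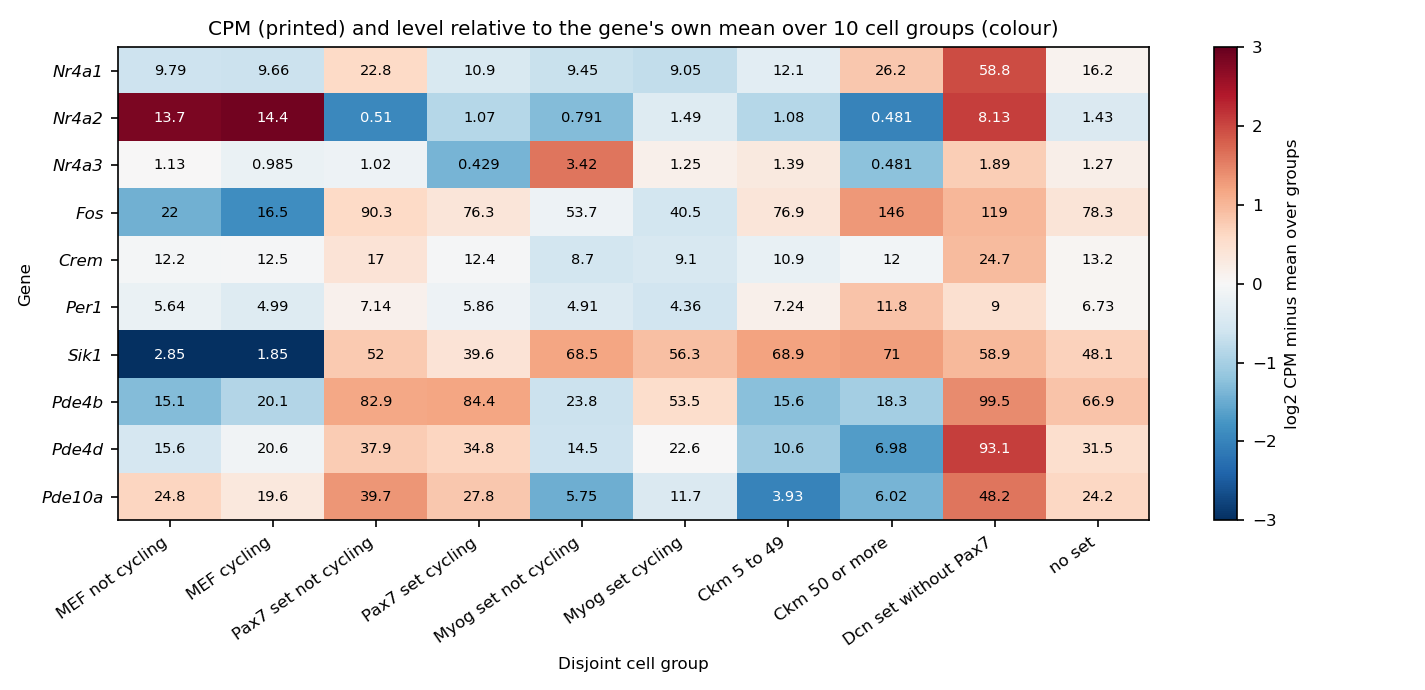
CPM of each gene (printed numbers) in 10 groups of cells that share no cell, with colour for the log2 level relative to the gene's own mean over the groups. Sik1 was low in both MEF groups (2.85 and 1.85 CPM), and the phosphodiesterases were low in the groups with Ckm.

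Single cells that held UMIs of 2 of these genes were counted at 5000 UMIs per cell. In MEF, Nr4a2 and Pde10a were found together in 67 cells where 31.6 would be expected if they were independent (log2 odds ratio 1.38, interval 0.95 to 1.80). Nr4a1 and Nr4a2 were found together in 27 MEF cells against 12.5 (1.29, lower bound 0.62). In the Pax7 set, Nr4a1 and Sik1 met in 45 cells against 28.3 (0.98, 0.41 to 1.53). The same pair had a log2 odds ratio of 0.92 (0.19 to 1.64) in the Dcn set. In the Myog set it was -0.47 (-1.40 to 0.38) and in the Ckm set 0.10 (-0.75 to 0.90). Of the pairs with at least 5 cells expected, the interval lay above 0 for 6 of 32 in MEF, 4 of 26 in the Pax7 set, 2 of 22 in the Myog set, 1 of 13 in the Ckm set and 4 of 26 in the Dcn set. It lay below 0 for 1 pair, Fos and Crem in the Pax7 set, found together in 32 cells against 42.8 (-0.60, -1.23 to -0.004). These intervals describe cells of 1 library and were not adjusted for the number of pairs.

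Over the same 10 groups, the genes whose log2(CPM + 1) followed each member most closely were ranked by Pearson's r among 9637 genes. The groups come from 2 libraries and differ in depth, so r is a description. Sik1 was followed by Egln3, Cacna1h and Bnip3 (r = 0.99 each), and 203 genes reached 0.9. Pde10a was followed by Adcy6, an adenylyl cyclase, at 0.99, with Rufy2 and Jak2, and 520 genes reached 0.9. Pde4b was followed by Hunk, Islr and Nr2f1, and Pde4d by Pdcl, Smad6 and Ipmk. Nr4a1 was followed by Plekha6, Fgf1 and Smox, Nr4a2 by Klk8, Fam102b and Ifit2, and Crem by Zc3h12a, P4hb and Masp1. Fos was followed by Mt3, Ndrg2 and Card19, and Per1 by Fam98c, Sertad1 and Ninj1. Nr4a3, with the fewest UMIs, had no gene at 0.9 and was nearest to Abl2, Spg21 and Srp19 (0.86 for the first).

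The rest of the cAMP pathway was read from lists of general knowledge, chosen with earlier results of these data known. The counts past 2-fold in these lists stand against 17.9% higher and 22.9% lower among all genes. Upstream, of 10 adenylyl cyclases, 7 reached 1 CPM: 1 was at least 2-fold higher in iMPC (Adcy9, which responds weakly to forskolin, log2 ratio 1.06) and 2 lower. Adcy7 was at 13.7 CPM in MEF and 0.958 in iMPC. Among Gs and its receptors, 3 of 8 measured were higher and 3 lower. Calcrl, the receptor for calcitonin gene-related peptide and adrenomedullin, was higher at a log2 ratio of 1.51, and Adora2b, an adenosine receptor, was lower at -1.51.

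Of the protein kinase A genes, 4 of 8 measured were higher and 0 lower. They were the catalytic subunit Prkaca (log2 ratio 1.05), the regulatory subunit Prkar2b (1.996) and the kinase inhibitors Pkia (3.35) and Pkig (2.15). Pkia was at 8.43 CPM in the Pax7 set, 113 in the Myog set and 143 in the Ckm set. Of the anchoring proteins, 3 of 6 were higher, led by Akap6, which holds the kinase at the muscle nuclear envelope, at 5.50, and Akap12 was lower at -3.90. Of the CREB factors and partners, 8 of 9 were within 2-fold and only Sik3 was lower. Of 2 Epac genes, the cAMP-gated exchange factors, Rapgef3 reached 1 CPM and was lower at -2.06.

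Of the other cAMP phosphodiesterases, 2 of 9 measured were higher and 2 lower, shares near those of all genes. Pde1a was higher at a log2 ratio of 2.99, while Pde4a (-1.86) and Pde8b (-3.92) were lower.

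Of 23 other CREB targets, 19 reached 1 CPM, with 11 at least 2-fold higher, 2 lower and 6 within 2-fold, beside 17.9% and 22.9% of all genes past 2-fold. Their median log2 ratio was 1.28. The largest were Scg2, a secretory granule protein (7.17), Atf3 (5.82), Areg, an EGF receptor ligand (5.53), Gem (4.15) and Dio2, which activates thyroid hormone (4.15). Areg was at 3.15 CPM in MEF, 198 in the Pax7 set, 29.4 in the Myog set, 18.0 in the Ckm set and 1135 in the Dcn set. Areg thus shared the order of the phosphodiesterases across the sets, as did Gem and Dio2. Scg2 did so except that it was lowest in the Myog set (2.79 CPM, against 3.37 in the Ckm set). Atf3 ran differently, at 10.1 CPM in the Pax7 set, 26.9 in the Myog set, 43.6 in the Ckm set and 15.9 in the Dcn set. Klf4 (-2.24) and Bdnf (-1.35) were lower. Fosb was near equal in the libraries, at 15.0 and 15.7 CPM, but at 74.0 CPM in the Dcn set and 2.12 in the Ckm set. The list of other CREB targets shares 7 genes with that of dissociation genes, and Per2 is also a clock gene. Since the list was chosen with earlier results of these data known, its count beside all genes is a description only.

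**Figure D4:**
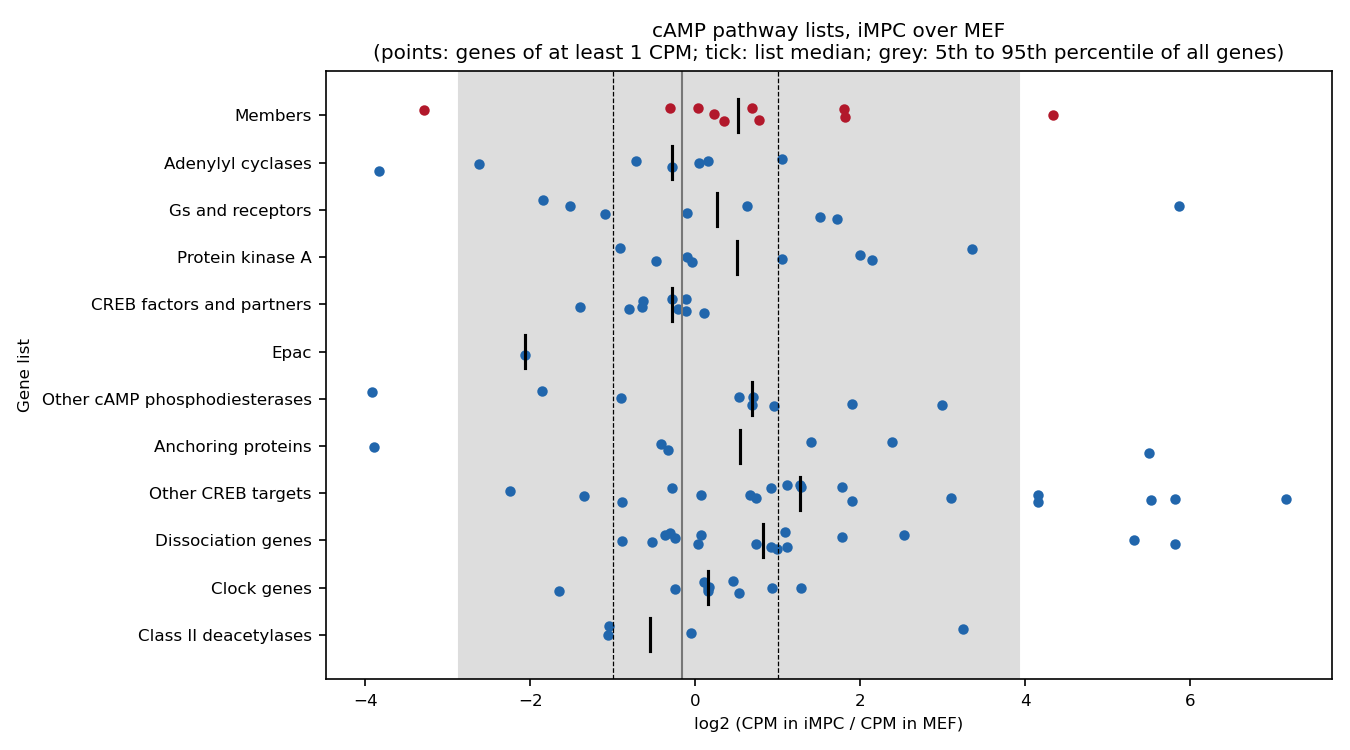
Log2 ratio of CPM in iMPC to CPM in MEF for the 10 genes and for pathway lists. Each point is a gene of at least 1 CPM, ticks are list medians, and grey spans the 5th to 95th percentile of all genes (-2.86 to 3.92). The median was 1.28 for other CREB targets and -0.29 for CREB factors and partners. All lists were chosen with earlier results of these data known.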

How the data were processed

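Cells were trypsinised and prepared with a 10x Genomics 3' kit, per the labels' protocols. The authors deposited raw counts of UMIs for each gene and barcode. The submitters' processing notes name Cell Ranger 4.0, Seurat 3.2.3 and GRCm38.p6 for the series. The MEF sample carries the iMPC treatment text in 1 field, and its own treatment label, fibroblast medium, was used. The iMPC matrix lists 6794880 barcodes with 282903287 UMIs and the MEF matrix 6113 barcodes with 118541302 UMIs. How the MEF barcodes were chosen is not given in the sources used here. The libraries share 16 cell barcodes. The MEF matrix lists 24 further genes with 0.209% of its UMIs, which were dropped.

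Cells were kept by the limits given with the results, which removed 191 iMPC and 70 MEF barcodes for mitochondrial UMIs. UMIs were summed per group and expressed as CPM. With 1 library per group no test was made. A gene was called at 2-fold or more if it reached 1 CPM in the higher group, and a gene at 0 was set to a floor of 3 counts. Ratio intervals are exact conditional and share intervals exact binomial (Clopper-Pearson). The ratio code was tested on simulated data. Doublets were kept. As an alternative Scrublet's 418 iMPC doublets were removed, and, since it marked 0 in MEF, the 292 highest scores there. Other alternatives were 2 other scalings, a mean over cells, a mitochondrial limit of 10%, thinning, subtraction of free RNA, filters of 10 CPM or none, deep MEF cells only, cells in a single set and stricter sets. Gene positions are from GENCODE M21 (GRCm38). All 10 genes are described. From each pathway list up to 5 genes per direction were eligible for naming. They had the largest ratio at 2-fold or more and at least 10 CPM in the higher library. Others were named after their values were seen: Per2, Sik2, Hdac4, Hdac9, Rapgef3, Fosb, Adcy9, Egr2 and Hspa8. So were Ier3, Junb, Dusp1, Jund, Zfp36 and Btg2. The members and lists were chosen with earlier results of these data known. Scripts ran in Python 3.11.15 with scanpy 1.11.5 (Scrublet), scipy 1.17.1 (intervals), numpy 2.4.6, pandas 2.3.3 and matplotlib 3.10.9.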

Additional observations from a re-analysis of the deposited data

Results flagged for a closer look

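The 48846 iMPC barcodes with 200 to 600 UMIs lie outside the cells analysed, and all 10 genes were detected in them above the 0.141 CPM that 3 counts would give. Sik1 was at 46.2 CPM there, Fos at 47.9, Pde4b at 23.4, Nr4a1 at 16.3, Pde4d at 11.4, Crem at 11.1, Per1 at 6.21, Pde10a at 4.33, Nr4a3 at 1.27 and Nr4a2 at 0.894. Relative to iMPC cells, the level was 1.03 times for Nr4a1, 0.956 for Per1 and 0.840 for Sik1, but 0.427 for Pde4b, 0.410 for Pde4d and 0.223 for Pde10a. These barcodes are the source of the free RNA estimate used above. Whether they hold free RNA, debris or low-RNA cells was not tested. No MEF barcodes of this kind were analysed here.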

How the results depend on the processing

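Among counts of members past 2-fold, 169 of the recomputed values stayed within 1.5 times the reported one and 13 did not. In the Pax7 set over MEF the lower count went from 1 to 2 with thinning or stricter sets, as Nr4a3 passed. In the Dcn set over MEF the higher count went from 5 to 8 with doublets removed (Nr4a3, Crem and Pde10a), and the lower count from 1 to 0 with thinning, with cells in more than 1 set left out or with stricter sets (Nr4a2). In the Ckm set over the Pax7 set the higher count went from 0 to 1, Nr4a3, with median scaling, a mean over cells, thinning, free RNA subtracted or cells in more than 1 set left out. With a 10 CPM filter the higher count went from 1 to 0 in the Myog set and from 4 to 2 in the Dcn set, both over the Pax7 set, since fewer genes are then counted. The cause of the others was not tested. Of 910 recomputed log2 ratios 24 had the other sign, and 0 of those belonged to a ratio past 2-fold. The shares of cells moved with the depth of thinning in 117 of 120 recomputed values. No paired analysis was possible because each group is 1 library. Depth limits most the 24 to 109 Nr4a3 UMIs and the 45 to 71 Nr4a2 UMIs of the 4 sets, whose intervals are wide.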
